A study of Mus musculus with 82 samples.

Results

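Interleukin signals of the IL-1 and IL-6 families were described in primary mouse aortic vascular smooth muscle cells (aVSMC) through 10 genes, chosen by name from the 55401 genes of the count table. They are Il33, the ligand of the receptor ST2, with Il1rl1, which encodes ST2. Il1r1 encodes the signaling receptor for IL-1, Il1rap the accessory protein shared by both receptors, and Il1rn the receptor antagonist. Il6, Il11 and Lif encode ligands of the IL-6 family. Il6st encodes gp130, the signaling chain these ligands share, and Osmr the oncostatin M receptor chain. RNA was sequenced from cells of C57BL/6 mice. The cells had been kept for 24 h in medium without serum or supplements, after growth in medium with serum, insulin, transferrin, hydrocortisone, selenite and EGF. All groups, controls included, share this earlier growth with EGF. The cells were then incubated with 10 µg/L epidermal growth factor (EGF), 10 nM angiotensin II (AngII), 1 µM U46619, which is an agonist of the thromboxane receptor TP, or combinations of them, or left in the same medium as control. After 24 h there were 7 groups of 6 libraries, 1 of each per mouse: the control, the 3 agents alone, EGF combined with AngII, EGF combined with U46619, and all 3 agents at once. After 48 h there were 6 groups in 40 libraries from an EGF/U46619 batch and an EGF/AngII batch of 5 culture sets each, so that control and EGF had 10 libraries and the other groups 5 each. The labels give 5 mouse numbers for these 10 culture sets, and mouse number 7 stands for 5 of them. The cells had been passaged up to 7 times, and the age of the animals is not given in the sources used here.

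IL-33 is stored in the nucleus of barrier and stromal cells and acts as an alarm signal when it is released. It binds ST2, which pairs with the IL-1 receptor accessory protein and signals through MyD88 and NF-kB. Il1rl1 also gives rise to a soluble form of ST2 that binds IL-33 without signaling, and this form is known as a blood marker of cardiac strain. The counts per gene used here do not separate the soluble from the membrane form. Ligands of the IL-6 family bind a specific receptor chain and then gp130, which activates JAK kinases and STAT factors. Vascular smooth muscle cells are known as a source of IL-6 in the vessel wall.

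AP-1 and NF-kB elements are known from promoters of inflammatory genes such as Il6, so the promoter windows were read for short motifs. RefSeq windows of GRCm38.p6 were present for 10 of 10 genes, 16 windows in all, each running from upstream of an annotated start to shortly after it. The windows of the 3 ligands of the IL-6 family, whose levels moved together with U46619, and of the 2 starts of Il1rl1, the gene with the widest response, follow from 5′ to 3′ on the gene's own strand, with matches to the AP-1 letters TGANTCA in capitals.

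Il6, chr5:30012864-30013163, plus strand: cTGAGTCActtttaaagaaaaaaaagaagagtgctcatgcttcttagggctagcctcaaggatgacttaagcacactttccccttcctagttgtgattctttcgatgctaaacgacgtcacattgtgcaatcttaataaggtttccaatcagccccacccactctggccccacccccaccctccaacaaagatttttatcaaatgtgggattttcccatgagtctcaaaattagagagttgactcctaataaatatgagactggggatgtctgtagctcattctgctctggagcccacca
Il11 window 1, chr7:4782808-4783107, minus strand: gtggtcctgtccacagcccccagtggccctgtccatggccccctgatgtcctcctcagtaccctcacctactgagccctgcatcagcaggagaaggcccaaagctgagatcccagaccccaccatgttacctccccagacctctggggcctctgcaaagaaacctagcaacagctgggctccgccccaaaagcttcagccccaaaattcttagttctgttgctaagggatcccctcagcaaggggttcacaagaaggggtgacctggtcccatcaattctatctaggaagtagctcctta
Il11 window 2, chr7:4778092-4778391, minus strand: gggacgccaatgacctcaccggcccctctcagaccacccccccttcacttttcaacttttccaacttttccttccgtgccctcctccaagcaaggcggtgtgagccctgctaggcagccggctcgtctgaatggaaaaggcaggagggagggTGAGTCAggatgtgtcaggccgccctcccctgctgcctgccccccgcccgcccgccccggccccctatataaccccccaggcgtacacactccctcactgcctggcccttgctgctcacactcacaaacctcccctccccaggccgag
Lif, chr11:4257318-4257617, plus strand: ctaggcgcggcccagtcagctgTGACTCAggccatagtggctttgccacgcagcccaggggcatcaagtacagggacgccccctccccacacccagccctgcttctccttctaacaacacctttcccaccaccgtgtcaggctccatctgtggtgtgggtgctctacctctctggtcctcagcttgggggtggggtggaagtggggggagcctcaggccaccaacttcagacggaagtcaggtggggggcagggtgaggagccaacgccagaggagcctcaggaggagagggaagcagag
Il1rl1 window 1, chr1:40429320-40429619, plus strand: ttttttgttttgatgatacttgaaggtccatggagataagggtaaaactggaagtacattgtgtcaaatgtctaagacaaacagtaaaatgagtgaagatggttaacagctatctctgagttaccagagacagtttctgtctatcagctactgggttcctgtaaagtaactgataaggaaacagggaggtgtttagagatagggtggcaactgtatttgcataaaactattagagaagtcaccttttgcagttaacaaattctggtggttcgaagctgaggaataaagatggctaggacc
Il1rl1 window 2, chr1:40439379-40439678, plus strand: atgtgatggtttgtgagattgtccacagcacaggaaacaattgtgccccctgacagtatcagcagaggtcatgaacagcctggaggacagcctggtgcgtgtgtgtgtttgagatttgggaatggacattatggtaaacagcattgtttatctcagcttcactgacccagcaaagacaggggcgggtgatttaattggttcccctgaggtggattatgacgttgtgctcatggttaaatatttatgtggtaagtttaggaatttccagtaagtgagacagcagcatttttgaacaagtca

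The AP-1 letters began at position 2 of the Il6 window and position 23 of the Lif window, and they lie near the middle of window 2 of Il11, while window 1 of Il11 held none of the 6 motifs. They were also found in 1 window each of Il1rn and Osmr, and thus in 5 of the 16 windows. Neither window of Il1rl1 held them. Of 32851 RefSeq windows of the same length, 7.81% held these letters on either strand. The NF-kB letters GGANTTTCC, present in 1.25% of all windows, were found at position 208 of the Il6 window and at position 258 of window 2 of Il1rl1. The CRE letters TGACGTCA and the STAT letters TTCNNNGAA were found in none of the 16 windows, against 1.79% and 8.3% of all windows. The C/EBP letters TTGCNNAA and the TEAD letters GGAATG were found in 4 and 5 of the 16 windows, against 10.8% and 14.7% of all windows. All 6 motifs were searched on both strands, and a match in letters is not a measured binding site.

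Total counts were 16483529 to 20818809 per library after 24 h and 19936925 to 33916114 after 48 h, so that 1 count corresponded to 0.048 to 0.0607 and 0.0295 to 0.0502 FPM, respectively, before the scaling between libraries. FPM are fragment counts of a gene scaled to the library size, the unit of all levels given here. The cells carried their labelled identity in part. Among 8 smooth muscle markers after 24 h, Acta2 was at 352 to 15200 FPM, Smtn at 47.5 to 226 FPM and Lmod1 at 9.31 to 391 FPM. Myh11 was at 0.149 to 276 FPM, Des at 0.865 to 21.5 FPM and Myocd at 0 to 3.22 FPM. Cnn1 and Tagln, which lie on chromosome 9, are listed at 0 in every library. The same holds for each of the 7075 genes on chromosome 9, the sex chromosomes and the mitochondrial genome. Cultures differed in markers of other cell types. In the controls after 24 h, the sum of 6 fibroblast markers was 378 to 3150 FPM, and that of 6 endothelial markers, of which Cdh5 is at 0, was 4.85 to 1200 FPM. In bulk RNA, fewer cells of a type and less RNA per cell cannot be told apart. The sum of 7 leukocyte markers was 17.5 to 114 FPM after 24 h, but Ptprc, Adgre1 and Itgam did not exceed 0.149 FPM and Cd3e, on chromosome 9, is at 0. After 48 h the leukocyte sum reached 539 to 833 FPM in set 1 of the EGF/AngII batch, and Ptprc reached 5.46 and Adgre1 33.1 FPM. Among 5 mast cell markers, Kit reached 86.6 FPM after 24 h, whereas Cpa3, Mcpt4, Tpsb2 and Fcer1a did not exceed 0.979 FPM. After 48 h, the control library of set 4 of the EGF/AngII batch stood apart. Its deviations from the group mean had a median correlation of −0.279 with the other libraries of its set and of 0.85 with those of set 2, and its endothelial sum was 1170 FPM, far above the other 3 libraries of its set. The calls after 48 h were therefore also made without it. The control library of set 2 of that batch correlated as well with set 1 (0.552) as with its own set (0.537), and its leukocyte sum was 234 FPM against a lowest of 40 FPM in its set.

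A differentially expressed gene (DEG) had a false discovery rate (FDR) under 0.05 in both edgeR and DESeq2, a mean of at least 5 FPM in a compared group, and enough counts at both times. All 10 genes passed the filter on low counts, and 14528 genes were tested in each comparison. Of the 10 genes, 6 were DEG at least once (Il1rl1 in 7 comparisons, Lif in 4, Il6 in 3, Il1r1 in 2, Il1rn and Il6st in 1 each), and 14 of these 18 calls were towards a higher level. All 18 came from comparisons between an incubation with U46619 and one without it. These comparisons share cultures, so the 18 calls are not separate results. Over all genes after 24 h, 1870 of 3893 calls with U46619 were higher. With EGF+U46619 it was 2367 of 4665, with EGF+AngII+U46619 2568 of 4849, and for EGF+U46619 compared with EGF 981 of 1877. After 48 h it was 360 of 585 with U46619, 558 of 995 with EGF+U46619 and 380 of 699 for EGF+U46619 compared with EGF.

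After 24 h incubation with U46619, 3 of the 10 genes were higher (Il1rl1, Il6 and Lif), while 26.8% of all genes tested were DEG. With EGF+U46619, 4 genes were called, namely Il1rl1, Il6 and Lif higher and Il1rn lower, against 32.1% of all genes. With EGF+AngII+U46619, 5 genes were called, namely Il1rl1, Il6 and Lif higher and Il1r1 and Il6st lower, against 33.4%. These 3 comparisons share their control cultures. The shares among the 10 genes are thus close to those among all genes, and it is the size of the Il1rl1 change and the direction of the ligands that are described in the following. The median log2-fold change of the 10 genes was 0.30, 0.49 and 0.41 in these comparisons, against −0.06, −0.05 and −0.04 over all genes tested. Direct comparison of EGF+U46619 with EGF called 3 genes, Il1rl1 and Lif higher and Il1r1 lower, against 12.9% of all genes. After 48 h, Il1rl1 was the only one of the 10 called, with U46619 (4.03% of all genes), with EGF+U46619 (6.85%) and with EGF+U46619 compared with EGF (4.81%).

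No gene of the 10 was called in the 13 other comparisons by edgeR and DESeq2 together, nor by either tool alone with the same minimum level. After 24 h these were EGF (0.0275% of all genes called, 4 of the 10 genes with an unadjusted p under 0.05 in both tools), AngII (0%, 0 genes), EGF+AngII (3.13%, 2 genes), EGF+U46619 compared with U46619 (0%, 1 gene), EGF+AngII compared with EGF (0%, 0 genes), EGF+AngII+U46619 compared with EGF+U46619 (0%, 0 genes) and the interaction of EGF and U46619 (0%, 0 genes). Of all 14528 genes tested, 2535 had such an unadjusted p with EGF and 3559 with EGF+AngII. For EGF+U46619 compared with U46619 it was 363. After 48 h these were EGF, AngII, EGF+AngII, EGF+U46619 compared with U46619, EGF+AngII compared with EGF, and the interaction, each with 0% of all genes called. Among these comparisons at 48 h, 1 of the 10 genes, Il1rl1, had such an unadjusted p in EGF+AngII compared with EGF, where 509 of all genes did. In the others 0 of the 10 did. With AngII alone the log2-fold changes of the 10 genes lay between −0.41 and 0.86 after 24 h and between −0.85 and 0.89 after 48 h, with Il11 at the upper end both times. After 48 h AngII was used only in the EGF/AngII batch, but the fit compares it with libraries of both batches. The −0.85 is that of Il1rl1. Within sets, after adding 0.5 FPM, its mean log2 difference was 0.11 ± 0.52 (SD, higher in 3 of 5 sets). For EGF+AngII compared with EGF, Il1rl1 was at −1.83 by the fit and −0.19 ± 0.54 within sets.

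**Figure D1:**
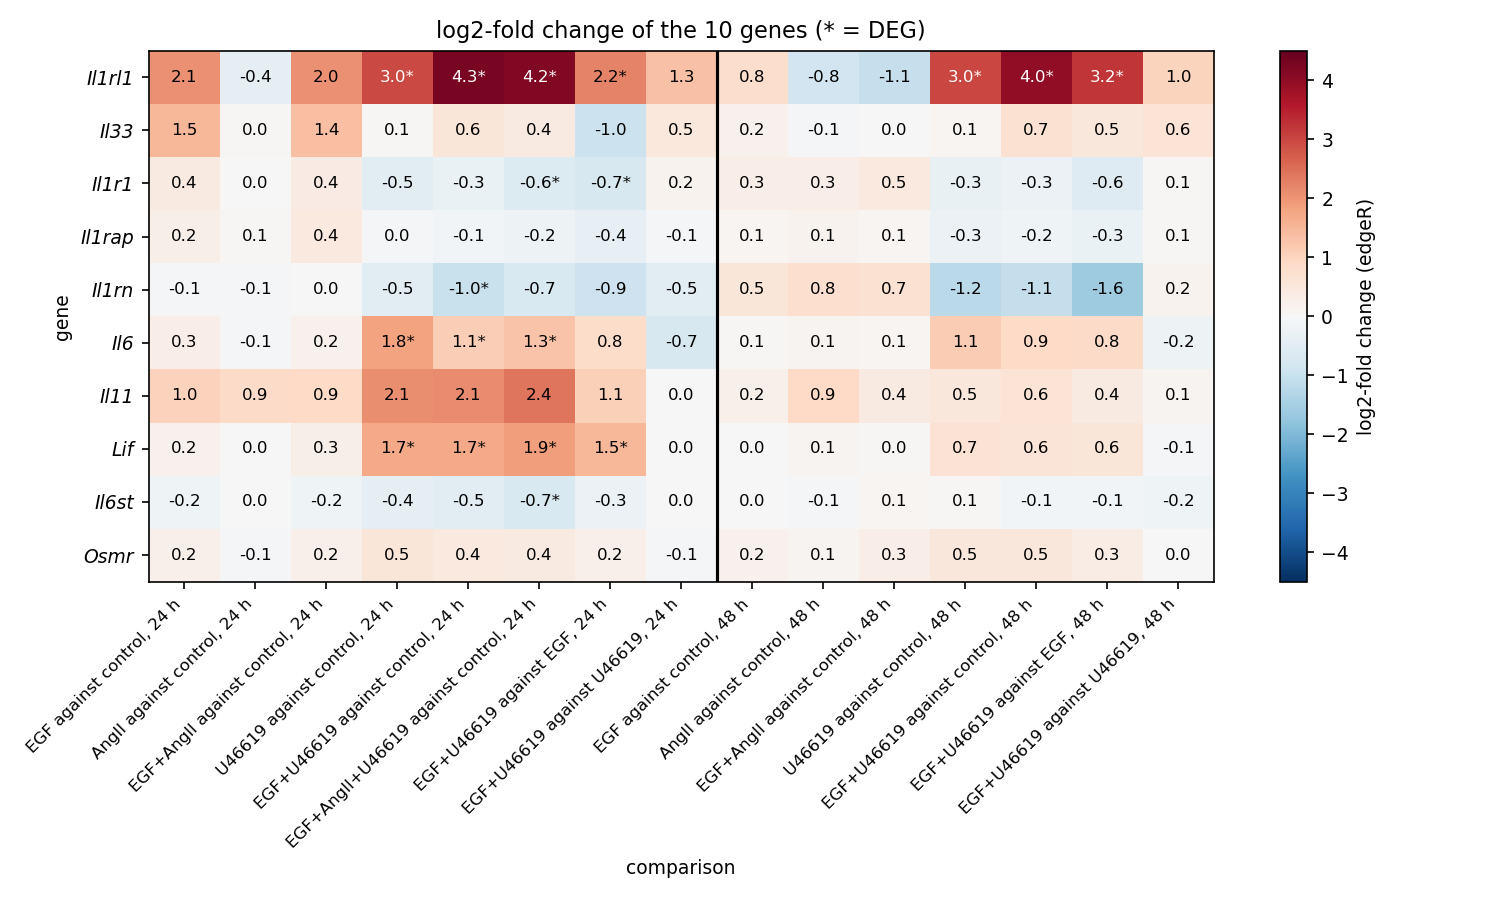
Fold changes of the 10 genes as a map of colours, with genes in lines and comparisons in columns, 24 h on the left and 48 h on the right of the black line. Colours and numbers are edgeR log2-fold changes and an asterisk marks a DEG. Il1rl1 has the deepest colour where an incubation with U46619 is compared with one without it, and the asterisks of Il6 and Lif lie in the 24 h columns that contain U46619.

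The Il1rl1 gene lies on chr1:40429570-40465415 (GRCm38, plus strand). After 24 h, its level in the 6 control libraries was 0.238, 0.554 and 2.16 FPM (lowest, median and highest). EGF gave 0.221, 2.72 and 11.5 FPM, U46619 gave 0.301, 5.59 and 20.0 FPM, and the combination EGF+U46619 gave 0.258, 19.5 and 53.5 FPM. The groups overlapped, since the lowest library of each treated group was below the median of the controls, while the highest with EGF+U46619 was far above all of them. The log2-fold change with U46619 was 2.96 ± 0.54 (SE, edgeR FDR = 0.000129) and with EGF+U46619 4.28 ± 0.54 (edgeR FDR = 8.95e-07), which is a 19.5-fold increase. Il1rl1 was higher in 5 of 6 mice in both comparisons.

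Incubation with EGF alone gave a log2-fold change of Il1rl1 of 2.06 ± 0.54 after 24 h, which did not pass the test (edgeR FDR = 0.0865, DESeq2 FDR = 0.0748, higher in 5 of 6 mice). Without mouse 6 it was called (2.53, edgeR FDR = 0.018). With EGF+AngII, Il1rl1 ranged from 0.234 to 11.7 FPM with a median of 2.55 FPM. Its log2-fold change of 2.05 ± 0.54 passed both tests (edgeR FDR = 0.0429) but its mean of 4.18 FPM missed the minimum level of a DEG. Without this minimum Il1rl1 is the only one of the 10 called with EGF+AngII, against 3.25% of all genes. AngII alone left Il1rl1 at 0.0939 to 1.32 FPM, a range that overlaps that of the controls (log2-fold change −0.41 ± 0.62, edgeR FDR = 1).

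The addition of AngII to EGF+U46619 gave Il1rl1 levels of 0.90, 17.1 and 47.7 FPM (lowest, median and highest). They spanned nearly the range of EGF+U46619. Compared with control, the log2-fold change was 4.18 ± 0.54 (edgeR FDR = 8.08e-07, higher in 6 of 6 mice), and compared with EGF+U46619 it was −0.10 with a 95% interval from −0.92 to 0.71 (edgeR FDR = 0.959).

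Whether EGF and U46619 together exceeded each alone was read from direct comparisons. Il1rl1 was higher with EGF+U46619 than with EGF in 6 of 6 mice (log2-fold change 2.22 ± 0.45, edgeR FDR = 0.00103). Compared with U46619, it was higher in 4 of 6 mice by 1.33 ± 0.43 on the log2 scale, with a 95% interval from 0.49 to 2.16, but this did not pass the adjustment over all genes (edgeR FDR = 1, DESeq2 FDR = 0.293). The interaction on the log2 scale, which is 0 when fold changes multiply, was −0.73 ± 0.67 with a 95% interval from −2.05 to 0.58.

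On the linear scale, a comparison added after the data had been seen, the excess of EGF+U46619 over the sum of the changes with each alone was 12.6 ± 13.0 FPM for Il1rl1 after 24 h (SD, n = 6 mice). It was above 0 in 5 of 6 mice, which gave p = 0.0938 in an exact two-sided sign-flip permutation test, whose smallest possible p with 6 mice is 0.0312. After 48 h the excess was 12.9 ± 11.2 FPM in 5 culture sets and above 0 in 5 of 5. Sets 1 and 4 carry the same mouse number, so these 5 sets stand for 4 mouse numbers and are treated as separate cultures here. Its exact permutation p of 0.0625 is the smallest that 5 sets allow. Adjusted over the 20 such tests of the 10 genes at both times (Benjamini-Hochberg), these p-values from the exact permutation test were 0.208 and 0.179.

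After 48 h, Il1rl1 in the 10 control libraries was 0.49, 0.883 and 22.6 FPM (lowest, median and highest). In sets 1 to 5 of the EGF/U46619 batch, U46619 gave 0.39, 11.1, 7.44, 24.9 and 16.2 FPM, against 0.583, 2.06, 1.1, 3.64 and 5.34 FPM in the controls of the same sets. EGF+U46619 gave 1.21, 28.9, 18.3, 34.8 and 55.3 FPM in these sets. Set 1 stayed low with every incubation, and in the other 4 sets both incubations lay above their own controls. The treated groups overlapped with the control group as a whole through set 1 and through set 6 of the EGF/AngII batch, where Il1rl1 was at 14.2 to 22.6 FPM with every incubation, control included. The log2-fold change was 3.00 ± 0.67 with U46619 (edgeR FDR = 0.00893), 3.99 ± 0.68 with EGF+U46619 (edgeR FDR = 0.000495) and 3.21 ± 0.66 for EGF+U46619 compared with EGF (edgeR FDR = 0.00421).

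These values at 48 h depend on how the cultures are matched. Where the replicate block was the culture set and not the mouse number, the log2-fold changes of Il1rl1 were smaller with smaller errors, namely 1.93 ± 0.33 with U46619, 3.11 ± 0.33 with EGF+U46619 and 2.50 ± 0.30 for EGF+U46619 compared with EGF (edgeR FDR = 0.000232, 3.08e-07 and 4.17e-06). With no replicate block they were 1.68, 2.88 and 2.64 and none was called (edgeR FDR = 0.47, 0.155 and 0.236). Within the EGF/U46619 batch alone they were 2.43, 3.48 and 2.54, of which only that of EGF+U46619 was called (edgeR FDR = 0.073, 0.0119 and 0.0785). Without the control library that stands apart, Il1rl1 stayed called in all 3 (2.87, 3.85 and 3.22). Without set 4 of the EGF/U46619 batch, the change with U46619 was 1.82 and not called (edgeR FDR = 0.0998). Compared with U46619, EGF+U46619 was higher in 5 of 5 sets (log2-fold change 1.00, 95% interval −0.54 to 2.53, edgeR FDR = 1).

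**Figure D2:**
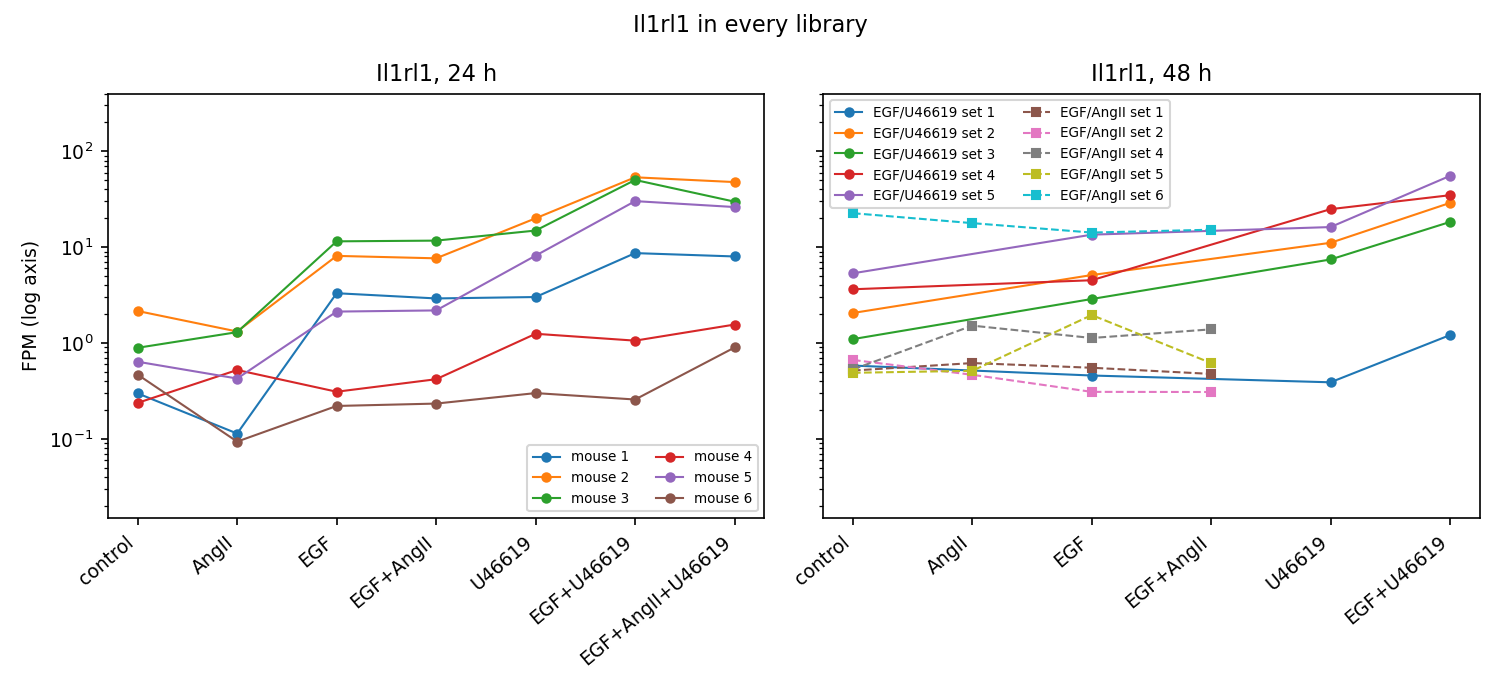
Il1rl1 in every library, in FPM on a log axis, after 24 h (left) and 48 h (right). Each line joins the libraries of 1 mouse or culture set, circles and full lines for the 24 h mice and the EGF/U46619 batch, squares and dashed lines for the EGF/AngII batch. With EGF+U46619 the lines of mice 1, 2, 3 and 5 end at 8.67 to 53.5 FPM, while those of mice 4 and 6 stay at 1.06 and 0.258 FPM.

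The response of Il1rl1 differed widely between mice. The ratio of EGF+U46619 to control after 24 h was 29.0, 24.8, 56.2, 4.45, 47.3 and 0.551 in mice 1 to 6, and after 48 h it was 2.07, 14.0, 16.6, 9.57 and 10.3 in sets 1 to 5. Mouse 6, the one with no increase, mouse 4 and set 1 had the lowest Il1rl1 levels with EGF+U46619 (0.258, 1.06 and 1.21 FPM), whereas the other 8 cultures had 8.67 to 55.3 FPM.

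The same 3 cultures had the highest summed levels of the endothelial markers, from 1060 to 1330 FPM over the libraries of mouse 6, 385 to 549 FPM in mouse 4 and 584 to 697 FPM in set 1. Mouse 5 had 202 to 281 FPM and the other 7 cultures at most 170 FPM. Of the 6 markers Cdh5 is at 0 throughout. The sum of the mast cell list, mostly Kit, was 38.3 to 69.2 FPM in mouse 4, 50.6 to 86.6 FPM in mouse 6 and 17.5 to 25.5 FPM in set 1. It was 25.1 to 36.3 FPM in mouse 5, where Il1rl1 was 47.3 times its control with EGF+U46619, and at most 0.277 FPM in mouse 2 and 1.84 FPM in mouse 3, the cultures with the highest Il1rl1 after 24 h. In set 6 of the EGF/AngII batch, where Il1rl1 was high with every incubation, the endothelial sum was 16.1 to 19.4 FPM. Set 5 of that batch had at most 267 FPM. With AngII, Il1rl1 was 0.467 to 1.52 FPM in the sets of that batch other than set 6. The fibroblast sum in control was 378, 425 and 361 FPM in mouse 4, mouse 6 and set 1. It was 3150, 2430 and 2760 FPM in mouse 3, set 5 of the EGF/U46619 batch and set 6 of the EGF/AngII batch. Set 4 of the EGF/U46619 batch had only 262 FPM, yet its Il1rl1 rose. Set 4 of the EGF/AngII batch had 2710 FPM with AngII, where Il1rl1 was low. The sum of 8 smooth muscle markers was mostly Acta2, and Cnn1 and Tagln are at 0. This sum ranged from 4430 to 15200 FPM with U46619 against 1260 to 5380 FPM in the controls after 24 h, and it was higher than in control in 6 of 6 mice. The sum of 6 fibroblast markers was lower with U46619 than in control in 6 of 6 mice, with medians of 295 and 776 FPM, and that of 7 leukocyte markers in 4 of 6 mice, with medians of 36.4 and 74.5 FPM. The part of these cell types in the result was not tested.

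Il33 (chr19:29925114-29960718, plus strand), the ligand of ST2, was no DEG in any comparison. After 24 h it was 0.12, 0.523 and 5.57 FPM in control (lowest, median and highest), 0.0885, 1.30 and 30.6 FPM with EGF, 0.110, 0.507 and 4.69 FPM with U46619, and 0.0549, 0.593 and 13.1 FPM with EGF+U46619. All groups overlapped, and in each the highest library was that of mouse 3. The log2-fold change with EGF was 1.51 ± 0.49 (edgeR FDR = 0.115, higher in 5 of 6 mice) and with EGF+AngII 1.37 ± 0.49 (edgeR FDR = 0.0853, higher in 6 of 6 mice). Without mouse 6, Il33 was called higher with EGF (1.80, edgeR FDR = 0.0396) and with EGF+AngII (1.54, edgeR FDR = 0.0416), and lower with EGF+U46619 than with EGF (−1.32, edgeR FDR = 0.0396).

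Il33 differed more between mice than between incubations. After 24 h the mean log2 level, taken after adding 0.5 FPM, differed by 3.75 between the lowest and the highest mouse and by 0.87 between the lowest and the highest group. In mouse 3, Il33 was at 4.39 to 30.6 FPM, while no library of the other mice exceeded 2.06 FPM. After 48 h, set 6 of the EGF/AngII batch had 180 FPM in control, set 5 of the EGF/U46619 batch had 27.8 FPM in control and 50.5 FPM with EGF, and set 4 of the EGF/AngII batch 14.6 to 17.1 FPM apart from its control at 1.53 FPM, while all others had at most 4.83 FPM. In set 5 of the EGF/U46619 batch, Il33 reached 65.6 FPM with U46619, and its level with EGF+U46619 was 5.45 times that of the control. Set 3 of that batch had the same order, with 1.24 FPM in control, 2.63 FPM with EGF, 4.45 FPM with U46619 and 4.83 FPM with the combination. In sets 1, 2 and 4 Il33 was not highest with EGF+U46619.

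These same cultures had high fibroblast markers, with sums of 605 to 4030 FPM in mouse 3, 1440 to 2430 FPM in set 5 of the EGF/U46619 batch and 1950 to 2760 FPM in set 6 of the EGF/AngII batch. Set 4 of the EGF/AngII batch had 370 to 2970 FPM, the lowest being its control. All 6 fibroblast markers were detected, and their part in the level of Il33 was not tested. Between the control and EGF libraries of mouse 3, Il33 went from 5.57 to 30.6 FPM while the fibroblast sum went from 3150 to 1660 FPM.

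**Figure D3:**
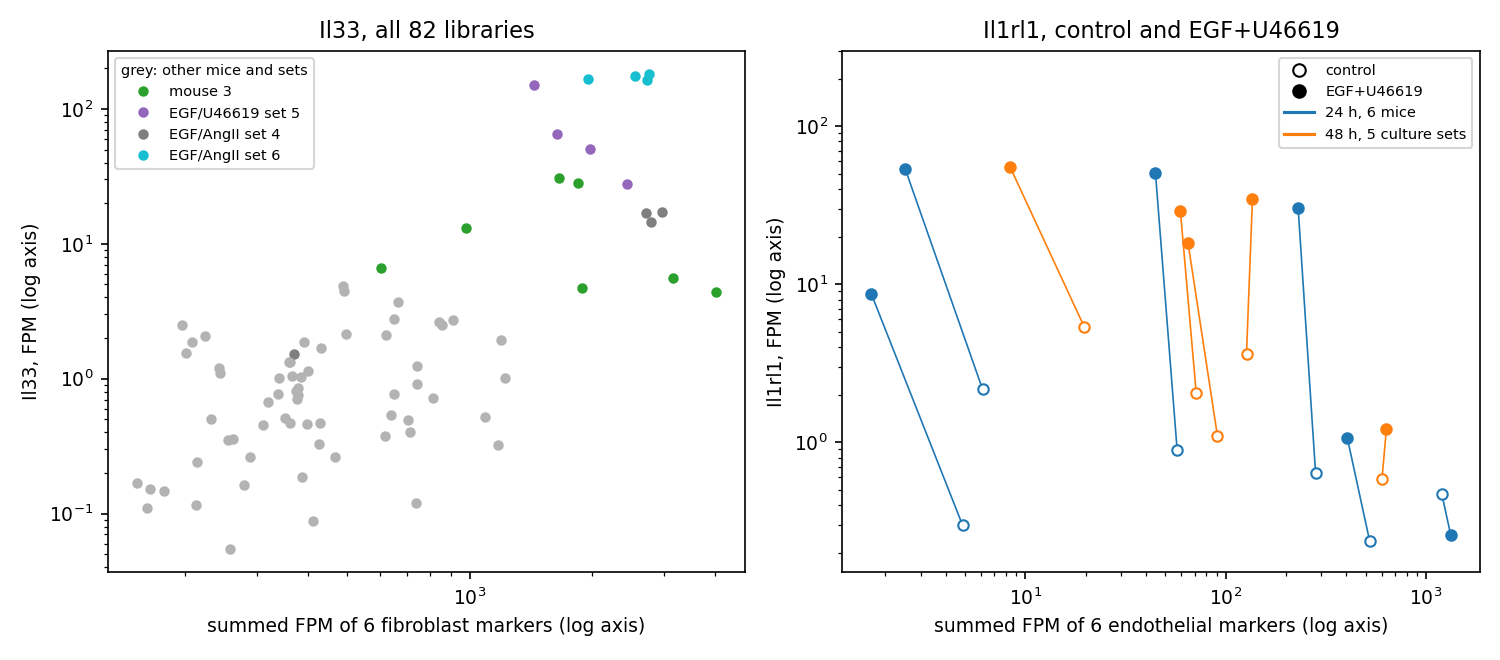
Left, Il33 against the summed FPM of 6 fibroblast markers in all 82 libraries, both on log axes, with the mouse and the sets of highest Il33 in colour. Right, Il1rl1 against the summed FPM of 6 endothelial markers, both on log axes, with a line from control (open circle) to EGF+U46619 (filled circle) for each of 6 mice after 24 h and 5 culture sets after 48 h. The 3 cultures at the right end, with 385 FPM of endothelial markers or more, are those with at most 1.21 FPM of Il1rl1 with EGF+U46619.

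Il1r1 (chr1:40225080-40317257, plus strand), the signaling receptor for IL-1, was called lower in 2 comparisons after 24 h, EGF+U46619 compared with EGF and EGF+AngII+U46619 compared with control, and neither call held without each mouse in turn. After 24 h it was 23.8, 39.6 and 125 FPM in control (lowest, median and highest), 36.8, 55.6 and 126 FPM with EGF, 17.7, 31.0 and 71.6 FPM with U46619 and 19.6, 40 and 60.7 FPM with EGF+U46619. The groups overlapped, with mouse 5 highest in the groups without U46619. Within mice, Il1r1 was lower with EGF+U46619 than with EGF in 6 of 6 mice (log2-fold change −0.72 ± 0.20, edgeR FDR = 0.0137). This call was lost without mouse 1, 2 or 4 (−0.66, −0.68 and −0.73, edgeR FDR = 0.0734, 0.0757 and 0.0579).

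With EGF+AngII+U46619, Il1r1 was 14.2, 23.0 and 67.9 FPM and lower than control in 6 of 6 mice (−0.62 ± 0.20, edgeR FDR = 0.0146). Without mouse 5 this was not called (−0.46, edgeR FDR = 0.0969). With U46619 alone the log2-fold change was −0.46 ± 0.20 (edgeR FDR = 0.0745), which was called without mouse 3 (−0.53, edgeR FDR = 0.0297) or mouse 6 (−0.55, edgeR FDR = 0.0477). With EGF+U46619 compared with control it was −0.30 ± 0.20 (edgeR FDR = 0.239), called without mouse 3 (−0.49, edgeR FDR = 0.0397). The fibroblast sum was lower than in control in 6 of 6 mice with U46619, EGF+U46619 and EGF+AngII+U46619 alike, and its part in the levels of Il1r1 was not tested. After 48 h, Il1r1 ranged from 21.5 to 135 FPM and was not called. The highest levels, 118, 124 and 135 FPM, were those of set 4 of the EGF/AngII batch with EGF, AngII and EGF+AngII, while its control, the library that stands apart, had 30.9 FPM.

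Il1rap (chr16:26581704-26730117, plus strand), the accessory chain of both ST2 and the IL-1 receptor, was not called in any comparison. Its group means after 24 h lay between 24.6 and 35.8 FPM, and single libraries between 4.6 and 62.3 FPM. The log2-fold change with EGF+U46619 was −0.12 with a 95% interval from −0.55 to 0.31. In the annotation, 552 exon bases of Il1rap are shared with Gm20319 on the opposite strand, and whether counting used the strand is not given in the sources used here.

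Il1rn (chr2:24336853-24351494, plus strand) encodes the antagonist that occupies the IL-1 receptor without signaling. After 24 h it was 0.428, 11.0 and 52.2 FPM in control and 0.352, 5.31 and 46.5 FPM with EGF+U46619 (lowest, median and highest). The ranges overlapped almost fully, yet each mouse was lower with EGF+U46619 than in its control. The log2-fold change was −1.01 ± 0.38 (edgeR FDR = 0.0323, lower in 6 of 6 mice). The call did not hold without mouse 1 (−0.57, edgeR FDR = 0.25), 3 (−1.03, edgeR FDR = 0.0631), 4 (−1.05, edgeR FDR = 0.0559) or 5 (−0.93, edgeR FDR = 0.0914). Compared with EGF it was −0.94 ± 0.38 (edgeR FDR = 0.0913), and it was called without mouse 2 (−1.39, edgeR FDR = 0.0244).

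Il1rn had the widest spread between mice of the 10 genes after 24 h. Its mean log2 level, with 0.5 FPM added, differed by 5.72 between mouse 4 and mouse 6, against 0.92 between groups. With U46619 alone it was 0.75, 5.92 and 96.6 FPM. Mouse 6 was the highest in every group and lay above its control of 52.2 FPM there, while 4 of 6 mice were lower with U46619 (log2-fold change −0.50 ± 0.37, edgeR FDR = 0.309). After 48 h, Il1rn was not called. With EGF+U46619 in sets 1 to 5 it was 1.4, 18.5, 3.09, 1.52 and 5.26 FPM, against 15.6, 38.6, 2.25, 1.12 and 0.725 FPM in their controls, so that sets 1 and 2 were lower and sets 3 to 5 higher.

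Among the ligands of the IL-6 family, Lif and Il6 were called higher in all 3 comparisons of U46619, alone or combined, with control after 24 h, and Il11 passed both tests in the same 3 at levels under the minimum of a DEG. Lif (chr11:4257557-4272514, plus strand) encodes leukemia inhibitory factor, which acts through its receptor chain and gp130. It was 1.14, 12.1 and 31.6 FPM in control (lowest, median and highest), 17.5, 31.2 and 63.4 FPM with U46619, 16.9, 33.1 and 60.2 FPM with EGF+U46619, and 17.2, 34.1 and 64.8 FPM with EGF+AngII+U46619. The 3 groups with U46619 had nearly the same range, whose lower end lay above the median of the controls. The log2-fold changes were 1.70 ± 0.35 with U46619 (edgeR FDR = 0.000407, higher in 6 of 6 mice), 1.70 ± 0.35 with EGF+U46619 (edgeR FDR = 0.000253, 6 of 6 mice) and 1.88 ± 0.35 with EGF+AngII+U46619 (edgeR FDR = 7.59e-05, 5 of 6 mice). Each of these 3 calls held when any 1 mouse was left out.

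With EGF alone Lif was 2.67, 10.5 and 44.6 FPM, higher in 3 and lower in 3 of 6 mice (log2-fold change 0.19 ± 0.34, edgeR FDR = 0.799). Compared with EGF, EGF+U46619 was higher by 1.51 ± 0.35 (edgeR FDR = 0.00303, 5 of 6 mice). Compared with U46619 alone, the difference was 0.00 with a 95% interval from −0.65 to 0.66. Mouse 3, which had the highest control and EGF levels, was at 33.7 FPM with U46619 and 37.5 FPM with EGF+U46619, and thus within the range of the other mice.

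Il6 (chr5:30013114-30019981, plus strand) encodes interleukin-6. After 24 h it was 0, 2.13 and 8.89 FPM in control, 1.57, 9.54 and 17.5 FPM with U46619, 0.828, 3.71 and 15.3 FPM with EGF+U46619, and 0.0754, 7.00 and 17.6 FPM with EGF+AngII+U46619 (lowest, median and highest). The groups overlapped, with mice 4, 5 and 6 higher than mice 1, 2 and 3 in every group. Within mice Il6 was higher with U46619 in 6 of 6 (log2-fold change 1.82 ± 0.43, edgeR FDR = 0.00154) and with EGF+U46619 in 6 of 6 (1.12 ± 0.43, edgeR FDR = 0.0375). With EGF+AngII+U46619 it was higher in 5 of 6 mice (1.28 ± 0.43, edgeR FDR = 0.0167), the exception being mouse 3 with 0.0754 FPM.

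Only the call of Il6 with U46619 held without each mouse in turn. With EGF+U46619 it was lost without mouse 1 (0.74, edgeR FDR = 0.165), 5 (1.18, edgeR FDR = 0.088) or 6 (1.17, edgeR FDR = 0.051), and without mouse 4 the highest group mean fell to 4.96 FPM. With EGF+AngII+U46619 it was lost without mouse 6 (0.86, edgeR FDR = 0.156). With EGF alone the log2-fold change of Il6 was 0.30 ± 0.43 (edgeR FDR = 0.739). EGF+U46619 compared with U46619 gave −0.71 with a 95% interval from −1.52 to 0.11, lower in 4 of 6 mice.

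Il11 (chr7:4772373-4782859, minus strand) encodes interleukin-11. It was 0.12, 0.439 and 0.77 FPM in control, 0.991, 1.81 and 4.92 FPM with U46619, 0.46, 1.57 and 9.86 FPM with EGF+U46619, and 0.302, 2.31 and 8.96 FPM with EGF+AngII+U46619 (lowest, median and highest). With U46619 no library was as low as the highest control, and this was the only one of these 3 groups without overlap. The log2-fold changes were 2.1 ± 0.50 (edgeR FDR = 0.00158, higher in 6 of 6 mice), 2.13 ± 0.50 (edgeR FDR = 0.000992, 6 of 6) and 2.40 ± 0.49 (edgeR FDR = 0.000245, 5 of 6). None of these counts as a DEG because no group mean exceeded 3.04 FPM. Without the minimum level Il11 is called in all 3, where 31.9%, 38.2% and 40.3% of all genes are called.

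After 48 h the ligands were not called with the mouse number as block. Il6 in sets 1 to 5 was 4.87, 21.2, 19.2, 7.21 and 44.3 FPM with U46619, against 1.55, 5.64, 8.22, 3.55 and 24.4 FPM in their controls, and thus higher in 5 of 5 sets. With EGF+U46619 it was 5.11, 20.5, 17.4, 5.59 and 28.3 FPM, also higher in 5 of 5. The log2-fold changes were 1.14 ± 0.50 (edgeR FDR = 0.18) and 0.90 ± 0.51 (edgeR FDR = 0.269). With the culture set as block they were 1.38 ± 0.36 (edgeR FDR = 0.0114) and 1.17 ± 0.37 (edgeR FDR = 0.0259) and were called, and within the EGF/U46619 batch alone they were 1.28 ± 0.22 (edgeR FDR = 0.00187) and 1.05 ± 0.22 (edgeR FDR = 0.0038).

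Lif after 48 h was 8.13, 11.4, 18.5, 14.1 and 55.7 FPM with U46619 in sets 1 to 5, against 2.68, 12.9, 9.94, 7.86 and 35.9 FPM in their controls. It was higher in every set but set 2. The log2-fold change was 0.65 ± 0.38 (edgeR FDR = 0.306), and with the culture set as block it was 0.70 ± 0.21 and was called (edgeR FDR = 0.0243). Without the control library that stands apart, the log2-fold changes with U46619 were 0.97 ± 0.44 for Il6 and 0.50 ± 0.35 for Lif, neither called (edgeR FDR = 0.217 and 0.435), and Il1rl1 was the only one of the 10 genes called. Il11 after 48 h ranged from 1.18 to 4.23 FPM with U46619 and from 0.422 to 2.46 FPM in control, with a log2-fold change of 0.52 ± 0.45 (edgeR FDR = 0.501).

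**Figure D4:**
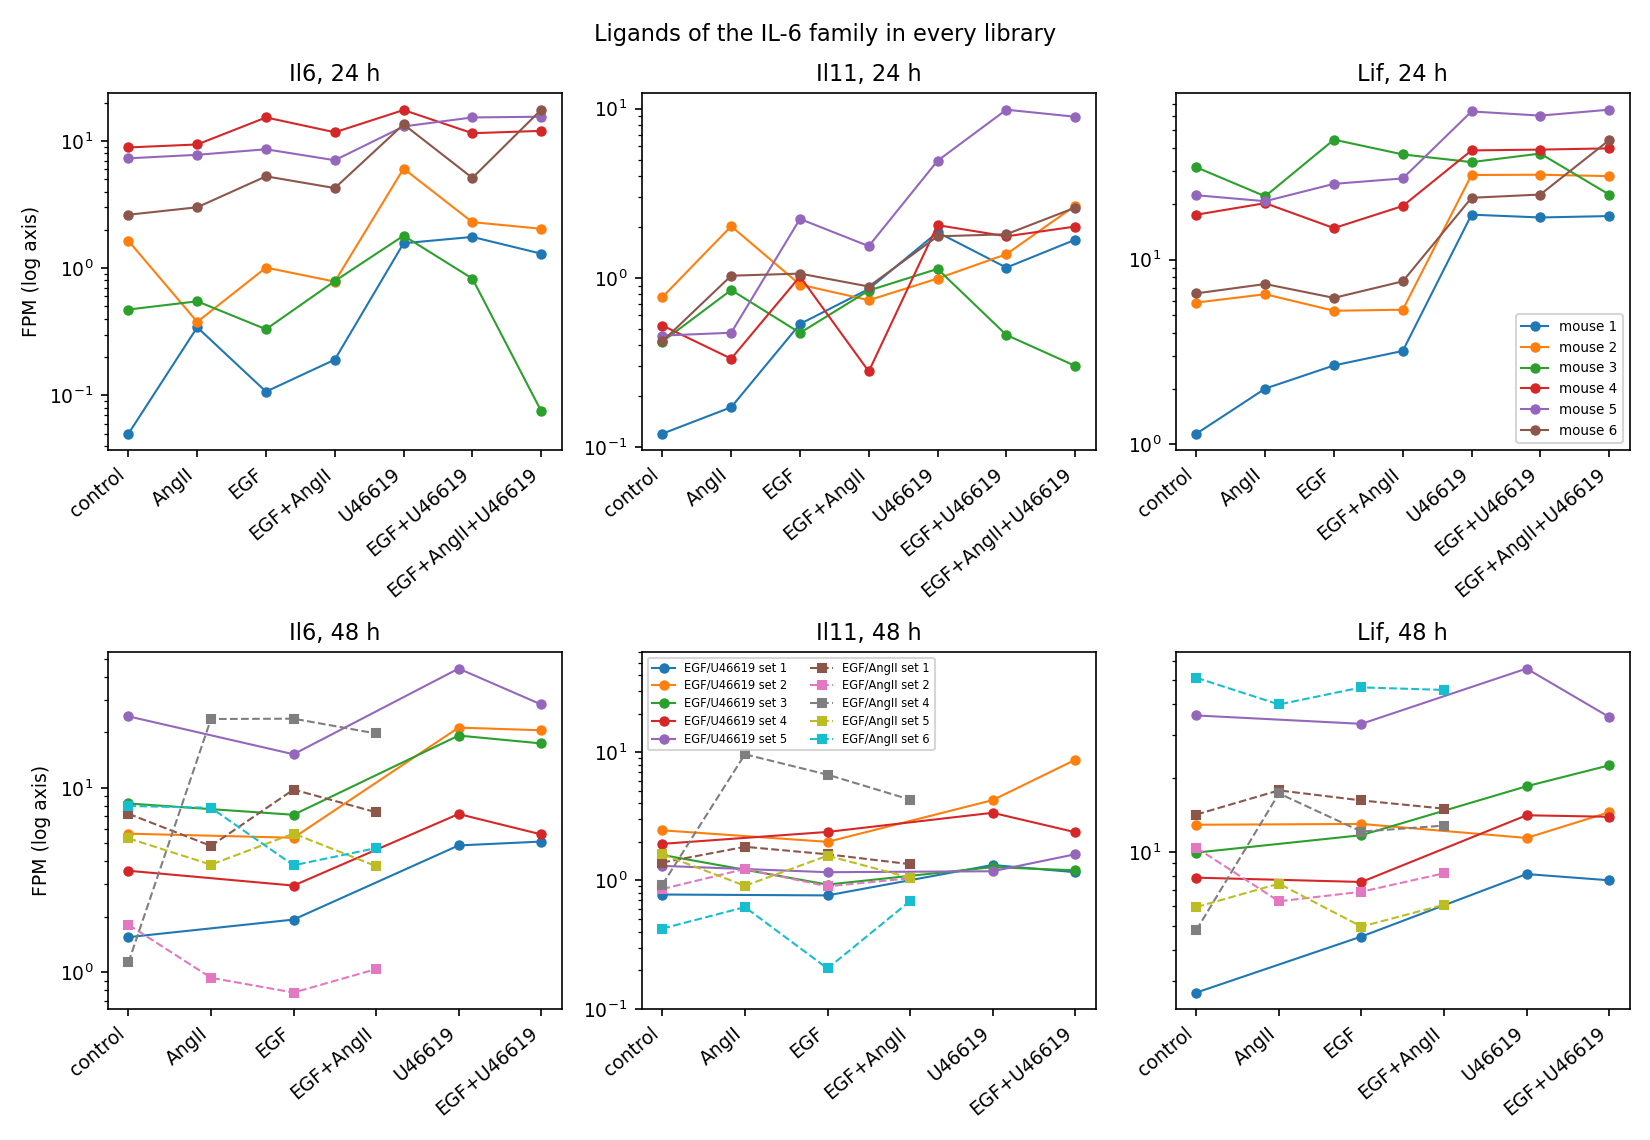
Il6, Il11 and Lif in every library after 24 h (upper panels) and 48 h (lower panels), in FPM on a log axis, with a line for each mouse or culture set and dashed lines for the EGF/AngII batch. The Il6 control library of mouse 1, at 0, is drawn at 0.05 FPM. In all 6 mice the lines of the 3 ligands lie higher with U46619 than in control after 24 h, and the EGF+AngII+U46619 library of mouse 3 falls to 0.0754 FPM for Il6.

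Il6st and Osmr encode receptor chains. Il6st (chr13:112464070-112510086, plus strand) was 272, 526 and 1150 FPM in control after 24 h, 272, 365 and 534 FPM with U46619, and 256, 408 and 453 FPM with EGF+U46619, each as lowest, median and highest. With EGF+AngII+U46619 the median was 328 FPM and the highest library had 482 FPM. The ranges overlapped, with the upper end lower wherever U46619 was present. It was called lower with EGF+AngII+U46619 (log2-fold change −0.67 ± 0.22, edgeR FDR = 0.012, lower in 5 of 6 mice). This was lost without mouse 2 (−0.63, edgeR FDR = 0.0605), 3 (−0.47, edgeR FDR = 0.0658) or 5 (−0.48, edgeR FDR = 0.0808). With U46619 and EGF+U46619 it was −0.43 ± 0.21 (edgeR FDR = 0.115) and −0.46 ± 0.21 (edgeR FDR = 0.086), the second being called without mouse 1 (−0.64, edgeR FDR = 0.0231). The median fibroblast sum was 776 FPM in control, 295 FPM with U46619, 289 FPM with EGF+U46619 and 295 FPM with all 3 agents, and its part in the levels of Il6st was not tested. After 48 h, no change of Il6st was called, and the log2-fold change with EGF+U46619 was −0.13 with a 95% interval from −0.59 to 0.33.

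Osmr (chr15:6813577-6874969, minus strand) was not called in any comparison. After 24 h it ranged from 47.1 to 266 FPM in control and from 150 to 273 FPM with U46619. The upper ends were alike, and the lower end of the range lay higher with U46619. The log2-fold change was 0.54 ± 0.22 (edgeR FDR = 0.0628, higher in 4 of 6 mice), and it was called without mouse 3 (0.67, edgeR FDR = 0.0293). After 48 h, U46619 and EGF+U46619 each gave 0.52 ± 0.22 (edgeR FDR = 0.15 and 0.13), and within the EGF/U46619 batch alone EGF+U46619 was called (0.43 ± 0.14, edgeR FDR = 0.0419).

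A single library entered several of these values. The EGF+AngII+U46619 library of mouse 3 had the lowest level of its group for Il6 (0.0754 FPM), Il11 (0.302 FPM), Il1r1 (14.2 FPM), Il1rap (4.6 FPM), Il6st and Osmr. Without mouse 3, the calls of Il1r1 and Il6 with EGF+AngII+U46619 remained, and that of Il6st did not.

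Since longer genes yield more fragments, levels were compared between genes per kb of exon. In the controls after 24 h the order was Il6st (51.1 ± 29.1 FPM per kb, SD, n = 6), Osmr (13.1 ± 6.82), Il1r1 (8.41 ± 6.09), Il1rn (3.74 ± 4.09), Lif (3.25 ± 2.67), Il1rap (2.50 ± 1.52), Il6 (1.44 ± 1.53), Il33 (0.457 ± 0.727), Il11 (0.217 ± 0.10) and Il1rl1 (0.113 ± 0.104). Il6st exceeded Osmr by more than the SD of either, and all other neighbours in this order differed by no more than the larger of their SDs. The receptor chains of the IL-6 family were thus higher per kb than its ligands, and Il1rl1 was last. With EGF+U46619 Il1rl1 reached 3.48 ± 3.51 FPM per kb, close to Il1rap at 2.26 ± 1.36 and below Il1r1 at 6.24 ± 3.01 FPM per kb.

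**Figure D5:**
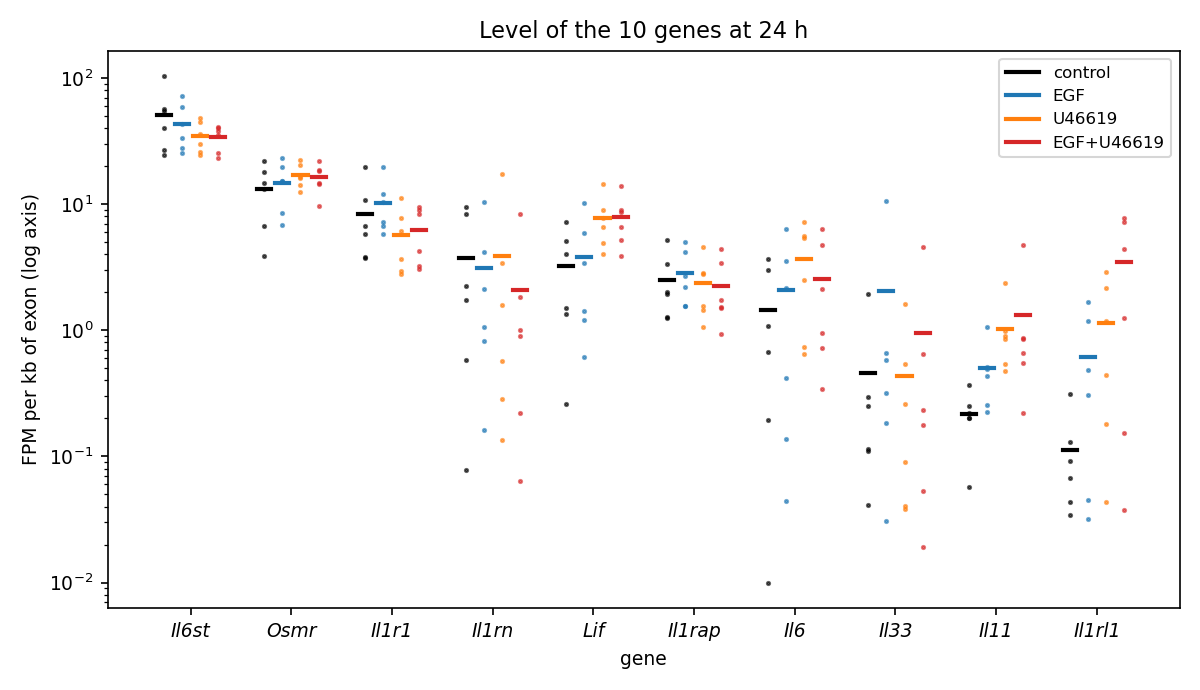
Level of the 10 genes after 24 h in FPM per kb of exon, on a log axis, in control, EGF, U46619 and EGF+U46619. Points are the 6 libraries of a group and bars their means, and the Il6 control library at 0 is drawn at the lower end of the axis. Il6st is the highest gene in all 4 groups, and Il1rl1 moves from the lowest mean in control (0.113) to 3.48 with EGF+U46619.

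The other genes of both pathways were read from lists that leave out the 10 genes, with 33 genes for the IL-1 family and 30 for the IL-6 family. In the IL-1 list, 5 genes have no entry under their symbol and 5 lie on chromosomes listed at 0, among them the adaptor Myd88, and 19 were tested. After 24 h incubation with U46619, 3 rose and 3 fell, with EGF+U46619 2 rose and 3 fell, and with EGF+AngII+U46619 4 rose and 3 fell, to be read against 26.8%, 32.1% and 33.4% of all genes called in either direction. The median log2-fold changes of the list were −0.08, −0.02 and 0.00, while those of all genes are given above. Il1a and Il1b, the agonist ligands, had too few counts to be tested, with means of 0.0189 and 0.00221 FPM after 24 h.

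Irak3, an inhibitory kinase-like protein of the pathway, fell from 25.1 ± 15.8 FPM (SD, n = 6) in control to 10.1 ± 6.12 FPM with EGF+U46619 (log2-fold change −1.16 ± 0.23, edgeR FDR = 0.000174). Nfkbia, which encodes the inhibitor IkB-alpha, fell from 58.8 ± 22.2 to 38.9 ± 20.4 FPM (−0.70 ± 0.15, edgeR FDR = 0.00033). Nfkbiz, which encodes a nuclear IkB protein, rose from 11.7 ± 5.19 to 22.5 ± 9.30 FPM (0.97 ± 0.23, edgeR FDR = 0.00111), and it was also higher with EGF+U46619 after 48 h (1.00 ± 0.18, edgeR FDR = 0.000889). Irak3 and Nfkbia were not called with EGF+U46619 after 48 h (−0.10 ± 0.40 and −0.46 ± 0.15, edgeR FDR = 0.9 and 0.0509). The kinase gene Irak2 rose with U46619 after 24 h (0.68 ± 0.21, edgeR FDR = 0.0121) and was not called with EGF+U46619 (0.37 ± 0.21, edgeR FDR = 0.153). Map3k7 rose with EGF+U46619 (0.45 ± 0.14, edgeR FDR = 0.0131) and was not called with U46619 (0.34 ± 0.14, edgeR FDR = 0.0651). In the direct comparison of EGF+U46619 with U46619, Irak2 was at −0.30 ± 0.21 and Map3k7 at 0.11 ± 0.14, neither called. Of the NF-kB subunits, Nfkb1 fell (−0.32 ± 0.10, edgeR FDR = 0.0142) and Nfkb2 rose with U46619 (0.34 ± 0.12, edgeR FDR = 0.0302), and neither was called with EGF+U46619 (edgeR FDR = 0.102 and 0.0327, DESeq2 FDR = 0.0564 and 0.0545). The same direct comparison gave 0.11 ± 0.10 and −0.02 ± 0.12 for them, neither called. After 48 h, none of Irak2, Map3k7, Nfkb1 and Nfkb2 was called against control. Il18rap, the accessory chain of the IL-18 receptor, was higher with EGF+U46619 after 48 h (2.46 ± 0.63, edgeR FDR = 0.014). Its level of 5.01 ± 4.68 FPM (SD, n = 5) was just over the minimum of a DEG, against 2.32 ± 4.36 FPM in control. After 24 h it also passed both tests with EGF+U46619 (2.60 ± 0.60, edgeR FDR = 0.000905), with EGF+AngII+U46619 (2.64 ± 0.60) and with EGF+AngII (2.39 ± 0.60). Its means there, at most 2.68 FPM, were under the minimum.

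In the IL-6 list, 2 genes lie on chromosomes listed at 0 and 23 were tested. After 24 h, 3 rose and 8 fell with U46619, 5 rose and 7 fell with EGF+U46619, and 3 rose and 8 fell with EGF+AngII+U46619, beside the same 26.8%, 32.1% and 33.4% of all genes. The medians were 0.21, 0.11 and 0.07. The ligand gene Clcf1 rose with EGF+U46619 from 14.1 ± 3.49 to 29.0 ± 7.36 FPM (1.04 ± 0.15, edgeR FDR = 4.1e-06). Clcf1 was also higher with U46619 after 48 h (0.82 ± 0.14, edgeR FDR = 0.0012).

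Several ligand-specific receptor chains of the IL-6 family fell, in the same comparisons in which the fibroblast sum was lower in 6 of 6 mice, and its part in these levels was not tested. Lifr, the receptor chain for LIF, fell from 54.5 ± 19.6 to 23.5 ± 5.82 FPM with EGF+U46619 (−1.16 ± 0.28, edgeR FDR = 0.00135). Il27ra fell from 14.6 ± 10.9 to 6.03 ± 3.84 FPM (−1.16 ± 0.25, edgeR FDR = 0.000419). Il6ra fell with U46619 (−0.49 ± 0.17, edgeR FDR = 0.0207) and was not called with EGF+U46619 (−0.34 ± 0.17, edgeR FDR = 0.0951). EGF+U46619 compared with U46619 gave 0.15 ± 0.17 for Il6ra, not called. Il11ra1 and Il11ra2, known as close copies whose reads the counting may split or share, had log2-fold changes of −1.22 ± 0.29 and −1.22 ± 0.25 with EGF+U46619 (edgeR FDR = 0.00106 and 0.000254) and are given as uncertain. Downstream of the receptors, Pias3 (−0.56 ± 0.18, edgeR FDR = 0.0107) and Socs1 (−0.87 ± 0.32, edgeR FDR = 0.0265), both negative regulators, fell with EGF+U46619, whereas Jak2 (0.64 ± 0.19, edgeR FDR = 0.00855) and Junb (0.97 ± 0.24, edgeR FDR = 0.00206) rose. With EGF+AngII, Jak2 was the only called gene of the IL-6 list (0.68 ± 0.19, edgeR FDR = 0.048). All these values are from 24 h. Of the genes named in this paragraph, only Junb was called against control after 48 h (0.67 ± 0.19 with EGF+U46619, edgeR FDR = 0.0235). Lifr and Il27ra were then at −0.58 ± 0.23 and −0.47 ± 0.26 with EGF+U46619 (edgeR FDR = 0.113 and 0.258).

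The genes whose pattern was most like that of Il1rl1, Lif, Il6, Il11 and Il33 were named by Pearson correlation over the 42 libraries of 24 h. The mean of each mouse had first been subtracted from the log2 levels. These libraries share mice and incubations, and the values are descriptions among 14653 genes. For Il1rl1 they were Dusp5 (r = 0.922), a phosphatase gene of the MAP kinase pathway, Cnot9 (0.917) and Nup50 (0.916). For Lif they were Thbs1 (0.933), which encodes thrombospondin 1, Axl (0.93) and Uck2 (0.926). For Il6 they were Picalm (0.876), Nexn (0.843) and Srfbp1 (0.843), and for Il11 Ttc7 (0.823), C530008M17Rik (0.81) and Vdac2 (0.808). For Il33 they were Antxr2 (0.831), Col15a1 (0.796) and Ank (0.763).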

How the data were processed

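RNA was sequenced from 82 libraries of aVSMC (poly(A) RNA). The authors aligned reads with HISAT2 2.1.0 to mm10 and counted them per gene with featureCounts, multi-mapping reads included, and the deposited values are raw counts per gene. The counting strand is not given in the sources used here. Groups, mice, culture sets and batches were taken from the labels. The 10 genes and all lists were chosen with earlier results of these data known.

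Counts were fitted with edgeR 4.0.16 (quasi-likelihood F-test, TMM, filter on low counts) and DESeq2 1.42.0 (Wald test) in R 4.3.3, with mouse and treatment as terms and 1 fit per time over all its groups. P-values were adjusted by Benjamini-Hochberg over all genes kept. SE was derived from the log2-fold change and the F value of edgeR. FPM are counts scaled to the library size after TMM. For a DEG, both tools had to give an FDR under 0.05 and at least 1 compared group a mean of 5 FPM or more, and the gene had to be kept at both times (14653 genes at 24 h, 15796 at 48 h, 14528 at both). The fits were tested on simulated data. Total counts limit precision, and before scaling 1 count is at most 0.0607 FPM.

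The mouse term rests on the labels. Libraries of the same mouse deviated together at 24 h, where 126 of 126 pairs had a correlation over 0.1 (median 0.776), and libraries of the same culture set did so at 48 h in 57 of 60 pairs (median 0.809). The methods describe a different mouse per replicate, whereas the labels at 48 h repeat mouse numbers between culture sets, so the culture set was also used as block.

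All 10 genes are named. Of the pathway lists, genes are named that were DEG in at least 2 comparisons with control at 24 h or 1 at 48 h, apart from some that are not reported here, and for 5 of the 10 genes the 3 genes most alike are given. Alternatives were a call by 1 tool, the likelihood ratio test of edgeR, DESeq2 size factors, no minimum FPM, no filter on low counts, no replicate block, the culture set as block, only the groups compared, each batch alone, leaving out each mouse or culture set, and leaving out the control library that stands apart. Promoter windows are from RefSeq (GRCm38.p6), and gene positions are from GENCODE M21 (GRCm38).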

Additional observations from a re-analysis of the deposited data

Results flagged for a closer look

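Among 130 groups of 5, 6 or 10 libraries, 1 for each of the 10 genes in each group and time, 9 held a sample far from the others by Dixon's criterion at its 95% critical value. The criterion was applied to log2 levels with 0.5 FPM added, while the values below are in FPM. Chance flags about 1 in 20 groups where values are normal and groups independent, whereas these groups share mice and culture sets.

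Several of these lay in the same culture. Il33 was 5.57 FPM in the control of mouse 3 (other mice 0.12 to 0.856), 30.6 FPM with EGF in mouse 3 (others 0.0885 to 1.92) and 28.1 FPM with EGF+AngII in mouse 3 (others 0.468 to 1.87), all after 24 h. Il1rl1 after 48 h was 17.8 FPM with AngII (other sets 0.467 to 1.52) and 15.2 FPM with EGF+AngII (others 0.309 to 1.39) in set 6 of the EGF/AngII batch.

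In set 4 of that batch, with AngII after 48 h, Il1r1 was 124 FPM (others 28.6 to 39.3) and Il1rn 52.6 FPM (others 2.73 to 5.53). Il6st with AngII after 48 h was 244 FPM in set 2 of the same batch, the lowest sample of its group (others 426 to 502). Il11 with EGF+U46619 after 24 h was 9.86 FPM in mouse 5 (others 0.46 to 1.81).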

How the results depend on the processing

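Of 343 counts of called members of the 10 genes recomputed under 28 alternative settings, 320 stayed within 1.5 times the value reported. In 13 of the 20 comparisons none of these genes was called, so the counts of those comparisons had no call to lose. Over all 200 log2-fold changes of these genes, 3430 values were recomputed, of which 3364 kept their call or lack of one, 42 lost the call and 24 gained it. Only 18 of the 200 were calls, so most of the 3364 were not called either way. For these calls and some uncalled changes of Il11 and Il1rl1, 357 values were recomputed. Of those, 313 were kept, 42 lost the call and 2 gained it. All counts of called genes stayed within 1.5 times the value reported with each tool alone, the likelihood ratio test, DESeq2 size factors and no filter on low counts. The same held without the control library that stands apart.

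With no replicate block, 1 gene was called with EGF+AngII+U46619, 1 with EGF+U46619, 0 with U46619 and 0 for EGF+U46619 compared with EGF after 24 h, and 0 were called with U46619, 0 with EGF+U46619 and 0 for EGF+U46619 compared with EGF after 48 h. The 2 calls left were those of Il1rl1 after 24 h (4.93 with EGF+U46619 and 4.59 with EGF+AngII+U46619). With the culture set as replicate block, 3 genes (Il1rl1, Il6 and Lif) were called after 48 h with U46619, 3 with EGF+U46619 and 3 for EGF+U46619 compared with EGF. The EGF/U46619 batch alone gave 3 with EGF+U46619 after 48 h. Only the groups compared gave 2 with EGF+AngII+U46619 and 2 with EGF+U46619 after 24 h, and 0 with U46619 and 0 for EGF+U46619 compared with EGF after 48 h. With no minimum FPM, 1 gene was called with EGF+AngII after 24 h. Except with no minimum FPM, the share of all genes called was not computed under these settings. Whether these counts differ from that share therefore cannot be said. The cause of these differences was not tested.

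Leaving out each mouse in turn gave, after 24 h, 0 to 2 called genes with EGF, 0 to 1 with EGF+AngII, 3 to 5 with U46619, 2 to 4 with EGF+U46619, 3 to 5 with EGF+AngII+U46619 and 2 to 4 for EGF+U46619 compared with EGF. Leaving out each culture set gave 0 to 1 with U46619 after 48 h and 1 in every case with EGF+U46619 and for EGF+U46619 compared with EGF. All other comparisons stayed at 0. The share of all genes called was not computed for these fits either. Without each mouse the log2-fold change of Il1rl1 was 2.7 to 3.47 with U46619 and 3.9 to 4.88 with EGF+U46619 after 24 h, and without each culture set it was 1.82 to 3.23 and 3.31 to 4.27 after 48 h. A within-mouse test for genes removed by the filter gave no value, because all 10 genes passed it. At this depth a gene under about 1 FPM, such as Il11, Il33 or Il1rl1 in most controls, rests on few counts.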
